A study of Arabidopsis thaliana with 9 samples.

Results

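The CYP71B subfamily of cytochrome P450 enzymes was examined in seedlings of Arabidopsis thaliana that differ in JMJ24, a protein of the jumonji family. The genes described are CYP71B6, CYP71B24, CYP71B30P, CYP71B31, CYP71B34, CYP71B37 and CYP71B38. They were taken by name, as the 7 probe sets whose platform annotation names exactly 1 of these genes, out of 22746 probe sets tested. The RefSeq gene table lists 37 CYP71B genes, of which 19 have a probe set of their own name here, so 12 further CYP71B genes could be set beside the 7. One more probe set names CYP71B20 and CYP71B19 together. The 7 genes were chosen with earlier results of these arrays known. A share counted over them is therefore a description and supports nothing about the subfamily.

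RNA from seedlings aged 9 days, by the extraction protocol, was hybridised to Affymetrix ATH1 GeneChips, with 3 arrays for each of 3 genotypes. The jmj24 group is a stock-centre mutant of JMJ24 (At1g09060, stock N521260). The 35S::JMJ24 group is a line made by Agrobacterium-mediated transformation, in which the 35S promoter of a plant virus, active in most tissues, drives JMJ24. The WT group is the accession Col-0. The labels give 1 mutant stock and 1 transgenic line, no treatment, and no statement of how many plants were pooled or whether replicates were grown apart. The study asked what JMJ24 does in transposon silencing. No probe set used here is paired with JMJ24, so its own level could not be checked.

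Cytochrome P450 enzymes are haem proteins of the endoplasmic reticulum that add oxygen to small molecules, with electrons from an NADPH-dependent reductase. In plants they build and break down hormones, defence compounds and scents. The CYP71B subfamily is large in Arabidopsis and much of it lies in tandem rows of neighbouring copies. Its best known member, CYP71B15 or PAD3, completes the synthesis of camalexin, an antimicrobial indole compound.

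Values are log2 summaries of probe set signal, so a difference of 1 is a doubling of signal. A gene was called at an adjusted p under 0.05 in limma's moderated test. Adjustment was by the Benjamini-Hochberg method over all 22746 probe sets, within each comparison and not over the comparisons together. The brightest of 27 controls against bacterial sequences, at 5.80, was taken as a mark of background. The other 26 lay at 4.61 or lower. By their means over the 9 arrays, 5 of the 7 genes lay above this mark, as did 7 of the 12 other CYP71B genes. Of the 7, those at or under it were CYP71B38 and CYP71B30P. Of the 12 others, they were CYP71B16, CYP71B21, CYP71B22, CYP71B25 and CYP71B27. Signals of different probe sets differ by their probes, so no gene's level was set against that of another.

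Across probe sets the correlation between arrays was 0.992 or higher. Of 5 root markers, the root hair expansins EXPA7 and EXPA18 were measured under a name, and 0 of the 19 listed markers of green tissue, vasculature, epidermis and flowers were. The mean of the pair lay at 6.95 to 7.10 in the mutant, 7.05 to 7.11 in the 35S::JMJ24 line and 6.24 to 6.94 in WT, so WT lay lower, and its lowest value was on array 1. Of the pair 0 passed in any comparison by limma, with 1 at an unadjusted p under 0.05 in the mutant against WT and 2 in 35S::JMJ24 against WT. Such an unadjusted p was seen for 11.7% and 7.43% of all probe sets in the same comparisons. The part of tissue make-up in the results for the CYP71B genes was not tested. The 3' minus 5' signal of 3 control transcripts, a measure of RNA quality, was taken on the log2 scale. It was 3.93 to 4.02 in the mutant, 3.91 to 4.04 in the 35S::JMJ24 line and 3.97 to 4.04 in WT. The 3' signal was thus far above the 5' signal in every genotype. These ranges were alike between genotypes and do not show that the RNA was intact. CYP71B genes are similar in sequence, and the part of cross-hybridisation between them was not tested.

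In the mutant, 2 of the 7 genes fell and 0 rose. Of all probe sets 1.14% were called in that comparison, 0.831% lower and 0.308% higher. CYP71B24 and CYP71B6 were those that fell. At an unadjusted p under 0.05 there were 5 of 7, against 11.7% of all probe sets. The median log2 change of the 7 was -0.21, against 0.006 for all probe sets. In 35S::JMJ24, 0 of the 7 passed against WT by limma, where 0.0176% of all probe sets were called, 0.00879% in each direction. At an unadjusted p under 0.05 there were 5 of 7, against 7.43%, and the median log2 change was -0.21, against 0.02 for all probe sets. Between the mutant and 35S::JMJ24, 0 of the 7 passed by limma and 5 had an unadjusted p under 0.05, where 0.246% (0.22% lower and 0.0264% higher) and 6.33% of all probe sets did. These background shares depend on single arrays: the 56 probe sets called between the mutant and 35S::JMJ24 became 14 without 35S::JMJ24 array 1, 15 without array 2 of that line and 25 without jmj24 array 3. In the mutant against WT 259 became 124 without WT array 2.

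**Figure D1:**
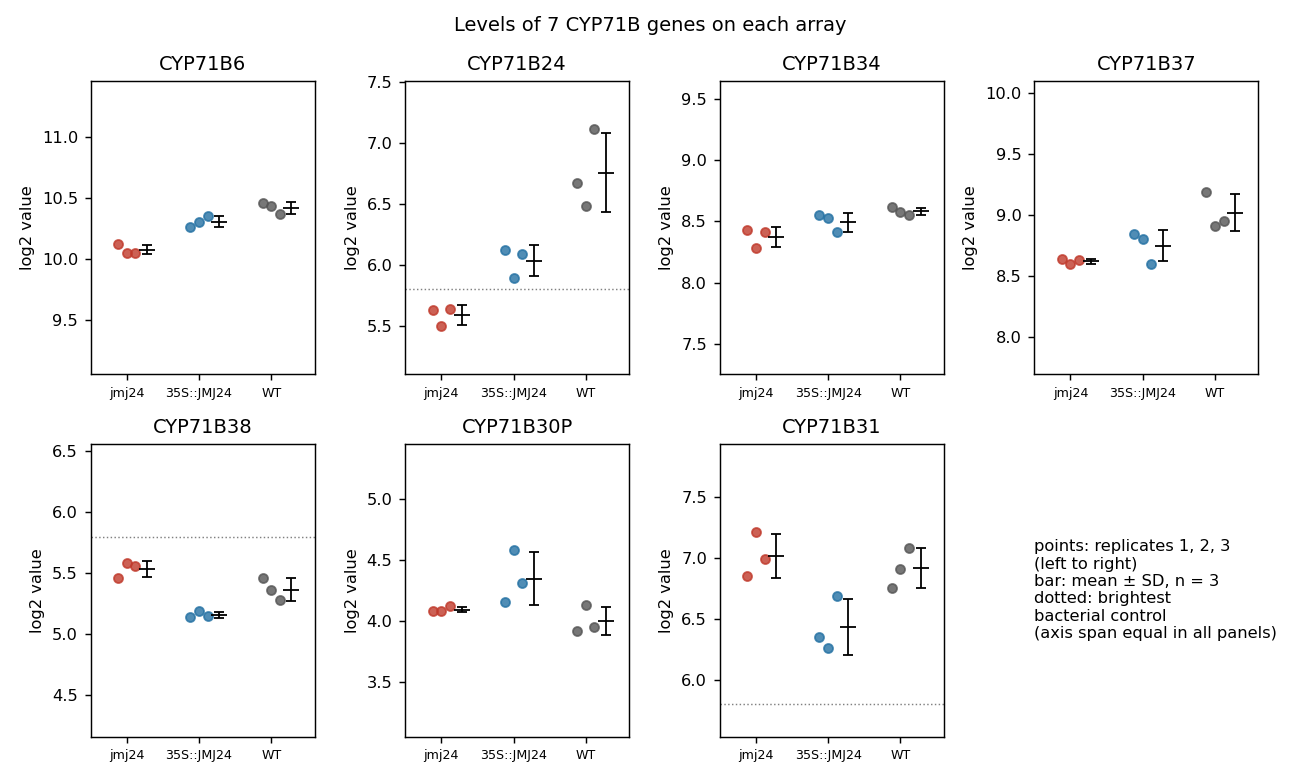
Log2 values (vertical axis, the same span in each panel) of the 7 CYP71B genes on every array, by genotype, with mean and SD of 3 arrays. CYP71B6 and CYP71B24 are lowest on all 3 jmj24 arrays, while CYP71B31 and CYP71B38 are lowest on the 3 35S::JMJ24 arrays.

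CYP71B24 (AT3G26230) showed the largest change of the 7, at less than 0.5 of its WT signal in the mutant. Its log2 values were 5.63, 5.50 and 5.64 on the jmj24 arrays, 6.12, 5.89 and 6.09 on the 35S::JMJ24 arrays, and 6.67, 6.48 and 7.11 on the WT arrays. The 3 genotypes did not overlap, with the mutant lowest, 35S::JMJ24 between, and WT highest and most spread. The mean was 5.59 ± 0.079 in the mutant and 6.75 ± 0.323 in WT (SD, n = 3 each). It fell by 1.16 on the log2 scale (SE 0.144, 95% interval -1.49 to -0.84), to 0.446 of the WT signal, and passed with an adjusted p of 0.00553 by limma. All 3 mutant values lie below the mark of background, so the size of the fall is uncertain. In RNA of whole seedlings, fewer cells of a type and less RNA per cell cannot be told apart. The call was kept whichever 1 array was left out, with an adjusted p of up to 0.028. It was lost without the array numbered 1 in every genotype (log2 change -1.23, adjusted p = 0.106).

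In 35S::JMJ24 the mean of CYP71B24 was 6.03 ± 0.124 (SD, n = 3). It differed from WT by -0.72 (SE 0.144, 95% interval -1.04 to -0.40) and did not pass over all probe sets (adjusted p = 0.353 by limma). The mutant differed from 35S::JMJ24 by -0.45 (adjusted p = 0.551 by limma). Both lines were set against the same WT arrays, so their changes are not independent of each other.

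CYP71B6 (AT2G24180) turns indole-3-acetonitrile, an intermediate of indole metabolism, toward indole-3-carboxylic acid compounds. Its values were 10.12, 10.05 and 10.05 on the jmj24 arrays, 10.26, 10.30 and 10.35 on the 35S::JMJ24 arrays, and 10.46, 10.43 and 10.37 on the WT arrays. The order was again mutant, 35S::JMJ24, WT from low to high, without overlap, but over a range of 0.41 in all. The mean was 10.07 ± 0.037 in the mutant and 10.42 ± 0.047 in WT (SD, n = 3 each), so the spread within a genotype was small. It fell by 0.34 on the log2 scale (SE 0.0587, 95% interval -0.48 to -0.21), to 0.788 of the WT signal, and passed with an adjusted p of 0.0271 by limma. In limma's F-test over the 3 genotypes together it did not pass (adjusted p = 0.0718), while CYP71B24 did (adjusted p = 0.0164). The call of CYP71B6 sits close to the threshold: leaving out any 1 of the 6 mutant or WT arrays ended it, with an adjusted p between 0.0552 and 0.117. The log2 change stayed between -0.37 and -0.32 in those fits. In 35S::JMJ24 the mean was 10.30 ± 0.043 (SD, n = 3) and the difference from WT was -0.11 (95% interval -0.24 to 0.02, adjusted p = 0.685 by limma).

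CYP71B37 (AT3G26330) and CYP71B34 (AT3G26300) showed the same order of genotypes. Neither passed in the fit without the replicate number, and CYP71B37 did so in the mutant with the replicate number as a block. CYP71B37 read 8.64, 8.60 and 8.63 on the jmj24 arrays, 8.84, 8.80 and 8.60 on the 35S::JMJ24 arrays, and 9.19, 8.91 and 8.95 on the WT arrays. Both lines lay wholly below WT, and the mutant overlapped with 35S::JMJ24. The mutant differed from WT by -0.40 (SE 0.0917, 95% interval -0.60 to -0.19, adjusted p = 0.0937 by limma), and 35S::JMJ24 differed by -0.27 (SE 0.0917, adjusted p = 0.605). With the replicate block the difference of the mutant from WT had an adjusted p of 0.0439, and with the number as a random effect 0.0548, both by limma. In the mutant this gene lay nearest outside the threshold, as CYP71B6 lay nearest inside it. CYP71B34 read 8.43, 8.28 and 8.41 on the jmj24 arrays, 8.55, 8.53 and 8.41 on the 35S::JMJ24 arrays, and 8.62, 8.58 and 8.55 on the WT arrays. Its difference from WT was -0.21 in the mutant (95% interval -0.36 to -0.06, adjusted p = 0.248 by limma), with no overlap, and -0.09 in 35S::JMJ24 (95% interval -0.24 to 0.06, adjusted p = 0.772), where the nearest arrays both read 8.55.

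A mean order of WT over 35S::JMJ24 over mutant, as in CYP71B6, CYP71B24, CYP71B34 and CYP71B37, was seen for 20.8% of all probe sets and for 4 of the 12 other CYP71B genes. CYP71B31 and CYP71B38 had the mutant highest and 35S::JMJ24 lowest, an order seen for 10.7% of all probe sets and for 0 of the 12 others. CYP71B30P had 35S::JMJ24 highest and WT lowest, as did 20.4% of all probe sets and 4 of the 12 others. Of these, CYP71B30P, CYP71B16, CYP71B21 and CYP71B25 lay under the mark of background on every array, and CYP71B5 lay above it.

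CYP71B31 (AT3G53300) is known to oxidise linalool, a scent compound, in Arabidopsis flowers. It read 6.85, 7.21 and 6.99 on the jmj24 arrays, 6.35, 6.26 and 6.69 on the 35S::JMJ24 arrays, and 6.75, 6.91 and 7.08 on the WT arrays. The 35S::JMJ24 arrays were lower than all others, and the mutant overlapped with WT. The difference of 35S::JMJ24 from WT was -0.48 (SE 0.136, 95% interval -0.79 to -0.18), with an unadjusted p of 0.006 that became 0.515 after adjustment by limma. The mutant lay above 35S::JMJ24 by 0.58 (SE 0.136, 95% interval 0.27 to 0.89, adjusted p = 0.241) and differed from WT by 0.10 (95% interval -0.21 to 0.41, adjusted p = 0.812).

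CYP71B38 (AT3G44250) lay below the mark of background on all 9 arrays, so no fold is drawn from it. It read 5.46, 5.58 and 5.56 on the jmj24 arrays, 5.14, 5.19 and 5.15 on the 35S::JMJ24 arrays, and 5.46, 5.36 and 5.28 on the WT arrays. Here 35S::JMJ24 was lowest without overlap, and the mutant and WT touched at 5.46. The mutant differed from 35S::JMJ24 by 0.37 (SE 0.0678, 95% interval 0.22 to 0.53, adjusted p = 0.0925 by limma), the smallest adjusted p of the 7 in that comparison. Against WT the mutant differed by 0.17 (adjusted p = 0.372) and 35S::JMJ24 by -0.21 (adjusted p = 0.597).

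CYP71B30P (AT3G53290) carries the P of pseudogene names, while the RefSeq table types it as protein-coding. It read 4.08, 4.08 and 4.12 on the jmj24 arrays, 4.15, 4.58 and 4.31 on the 35S::JMJ24 arrays, and 3.92, 4.13 and 3.95 on the WT arrays. All 9 values lie among those of the bacterial controls, so they are not read as a level of transcript. The highest WT array and the lowest 35S::JMJ24 array were only just apart. The difference was 0.34 in 35S::JMJ24 against WT (SE 0.106, adjusted p = 0.542 by limma) and 0.09 in the mutant against WT (adjusted p = 0.777).

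The values of 35S::JMJ24 and WT did not overlap for 7 of the 7 genes, and this held for 11.7% of all probe sets. Some were barely apart: the nearest 35S::JMJ24 and WT arrays read 8.55 and 8.55 for CYP71B34, 4.15 and 4.13 for CYP71B30P, and 10.35 and 10.37 for CYP71B6. CYP71B30P and CYP71B38 also lay under the mark of background on every array. The same count was 4 of 7 between the mutant and WT and 5 of 7 between the mutant and 35S::JMJ24, where 16.0% and 10.2% of all probe sets showed it. For the 12 other CYP71B genes the counts were 0 for the mutant against WT, 1 for 35S::JMJ24 against WT (CYP71B28) and 0 for the mutant against 35S::JMJ24. The 7 were chosen with these values known, so nothing is read from their contrast with the 12 others.

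**Figure D2:**
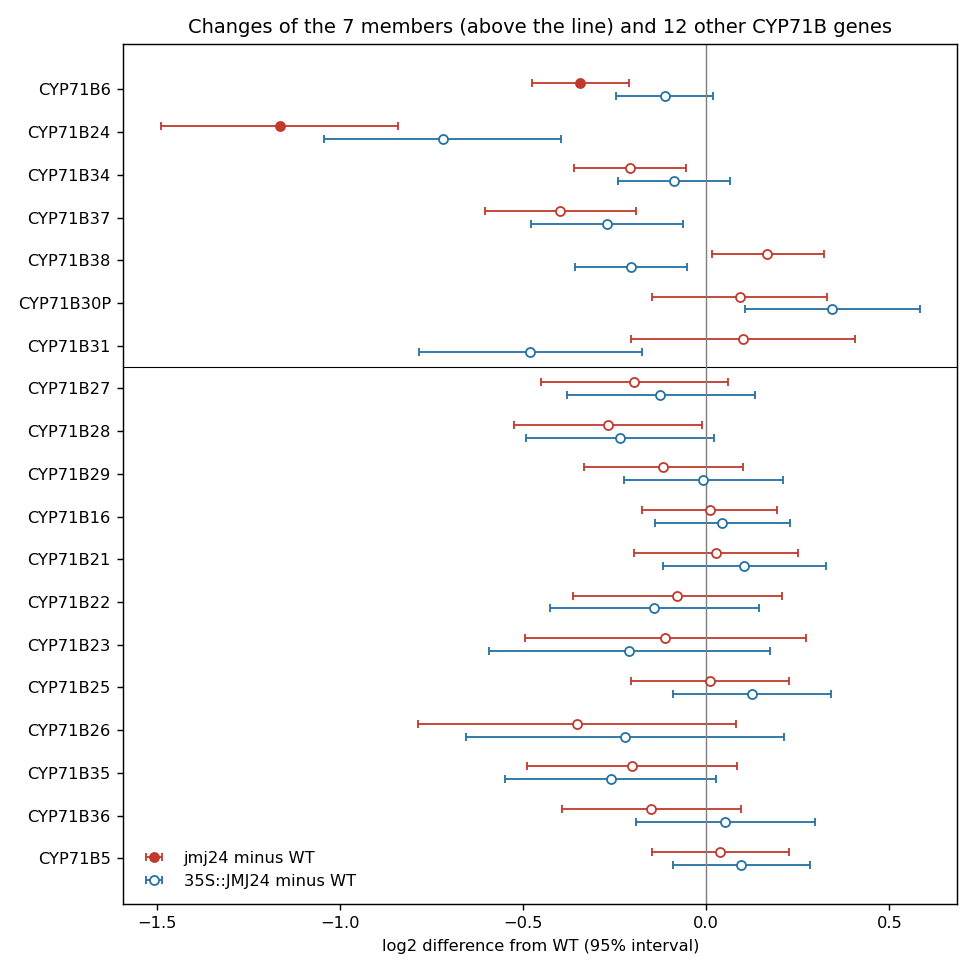
Log2 difference from WT (horizontal axis) with 95% intervals for the 7 genes above the line and the 12 other CYP71B genes below it, for jmj24 and 35S::JMJ24; filled points passed the adjusted threshold. CYP71B24 at -1.16 and CYP71B6 at -0.34 in jmj24 are the filled points, and the intervals of the 12 others cross 0 except that of CYP71B28 in jmj24.

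Of the 12 other CYP71B genes, 0 passed in any of the 3 comparisons by limma, and 1 (CYP71B26) passed in the mutant against WT with the replicate number as a block. CYP71B16, CYP71B21, CYP71B22, CYP71B25 and CYP71B27 lay under the mark of background on every array, so a fall or a small rise could hardly be seen in them. At an unadjusted p under 0.05 there was 1 in the mutant against WT (CYP71B28) and 0 in the comparisons of 35S::JMJ24 with WT and of the mutant with 35S::JMJ24. Their log2 changes ran from -0.35 to 0.04 in the mutant, with a median of -0.12, and from -0.26 to 0.13 in 35S::JMJ24, with a median of -0.07. CYP71B28 (AT1G13090) differed from WT by -0.27 in the mutant (95% interval -0.53 to -0.01, adjusted p = 0.406). CYP71B26 (AT3G26290) differed by -0.35 (95% interval -0.79 to 0.08, adjusted p = 0.524) in the fit without the replicate number. It read 11.64, 11.33 and 11.02 on jmj24 arrays 1, 2 and 3, 11.74, 11.49 and 11.16 on the 35S::JMJ24 arrays, and 11.93, 11.69 and 11.43 on the WT arrays. Its spread within each genotype followed the replicate number, and within numbers the mutant differed from WT by -0.29, -0.36 and -0.41. With the replicate block CYP71B26 passed (adjusted p = 0.0258 by limma), and with the number as a random effect it did not (adjusted p = 0.37). The probe set shared by CYP71B20 and CYP71B19 read 10.82 ± 0.195 in the mutant, 11.01 ± 0.076 in the 35S::JMJ24 line and 11.03 ± 0.061 in WT (SD, n = 3 each), and passed in none of the 3 comparisons by limma.

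Of the 7 genes, 6 lie on chromosome 3 and CYP71B6 alone lies on chromosome 2. The row from CYP71B16 to CYP71B37 holds 25 annotated genes, of which 11 were measured under a name, among them CYP71B24, CYP71B34 and CYP71B37. The other row runs from CYP71B5 through CYP71B30P and CYP71B31 to CYP71B32. It was followed on to the next gene, AT3G53310, which carries no CYP71B name, with 4 of 7 annotated genes measured. CYP71B38 lies apart from both.

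Since levels of different probe sets cannot be compared, neighbours were compared by their change: the difference between their log2 values was taken on each array and compared between genotypes. Exact two-sided permutation tests were made for 7 pairs in 3 comparisons, 21 tests in all. With 3 arrays against 3 the smallest possible p is 0.1, and the smallest adjusted over the 21 was 0.191, so no pair could pass.

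CYP71B24 was further below WT than CYP71B34 in both lines, with 10 annotated genes between them. The difference of the pair was -2.78 ± 0.008 in the mutant, -2.46 ± 0.164 in the 35S::JMJ24 line and -1.83 ± 0.343 in WT (SD, n = 3 each). The mutant was lower than WT by 0.96 (exact permutation p = 0.1) and 35S::JMJ24 by 0.63 (exact permutation p = 0.1), without overlap in either. Beside CYP71B23 (AT3G26210), with only CYP71B3 between, CYP71B24 was again the further below WT: that difference was -1.45 ± 0.226 in the mutant, -0.91 ± 0.298 in the 35S::JMJ24 line and -0.40 ± 0.392 in WT (SD, n = 3 each). It was -1.05 for the mutant against WT (exact permutation p = 0.1) and -0.51 for 35S::JMJ24 against WT, where arrays overlapped (exact permutation p = 0.3). CYP71B23 itself differed from WT by -0.11 in the mutant (95% interval -0.50 to 0.27, adjusted p = 0.834 by limma).

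CYP71B34 and CYP71B37 have 2 genes between them. CYP71B34 minus CYP71B37 was -0.25 ± 0.060 in the mutant, -0.25 ± 0.051 in the 35S::JMJ24 line and -0.43 ± 0.127 in WT (SD, n = 3 each). Against WT this differed by 0.19 in the mutant and 0.18 in 35S::JMJ24 (exact permutation p = 0.1 for each), so CYP71B37 lay further below WT than CYP71B34 in both lines. Without WT array 1, which stood lowest at -0.58, they were 0.118 and 0.112. CYP71B37 beside CYP71B36, its direct neighbour, differed from WT by -0.25 in the mutant and -0.32 in 35S::JMJ24 (exact permutation p = 0.1 for each). The nearest mutant and WT arrays were barely apart, at 2.64 and 2.66 for this pair. For CYP71B34 minus CYP71B37 they were at -0.32 and -0.34. CYP71B34 beside CYP71B35, also direct neighbours, differed by -0.005 in the mutant (exact permutation p = 1) and 0.17 in 35S::JMJ24 (exact permutation p = 0.3), the second between 0.109 and 0.262 with 1 array left out.

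**Figure D3:**
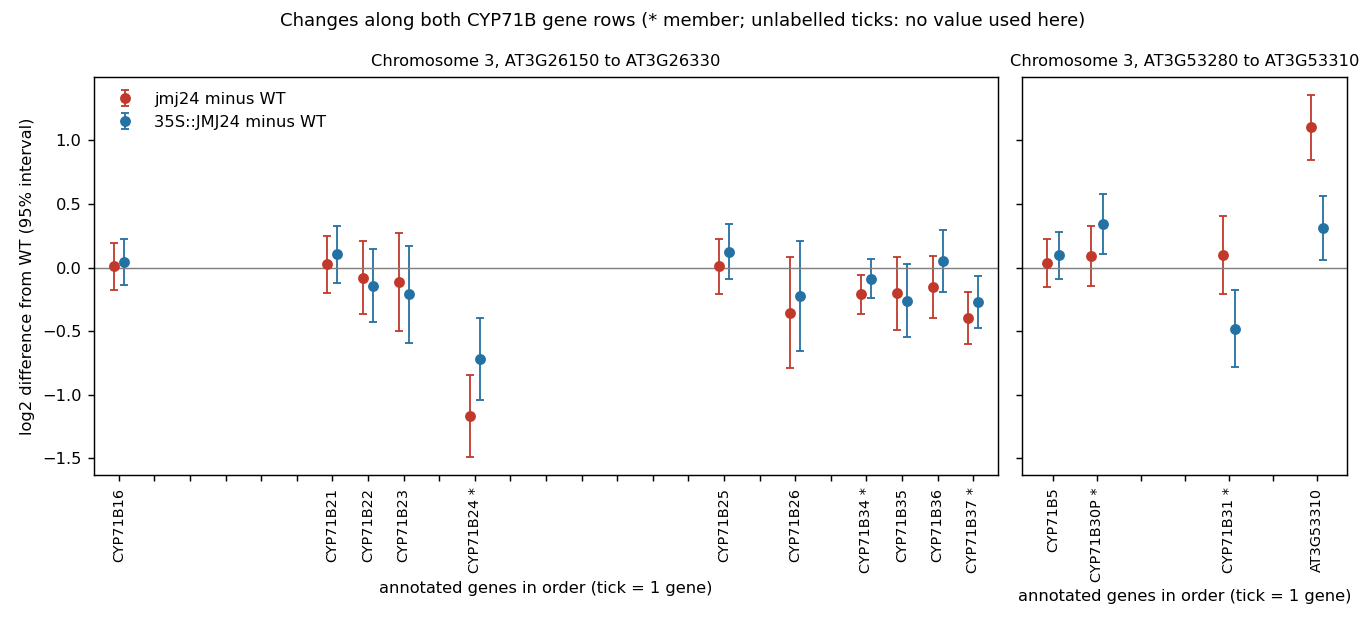
Log2 difference from WT (vertical axis) with 95% intervals for the measured genes of both rows on chromosome 3, in gene order; each tick is 1 annotated gene and asterisks mark the genes of the 7 that lie in these rows. CYP71B24 stands at -1.16 in jmj24 between the measured neighbours CYP71B23 at -0.11 and CYP71B25 at 0.01. AT3G53310, which carries no CYP71B name, stands at 1.103 in jmj24. CYP71B25, with a mean of 4.04, lay under the mark of background on every array, so a fall could hardly be seen in it.

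For CYP71B30P and CYP71B31, arrays of 35S::JMJ24 and WT did not overlap in the difference of the pair, and those of the mutant and WT did. CYP71B30P minus CYP71B31 averaged -2.92 ± 0.186 in the mutant, -2.09 ± 0.361 in 35S::JMJ24, with -2.91 ± 0.193 for WT (SD, n = 3 each). The difference from WT was -0.008 in the mutant (exact permutation p = 1) and 0.82 in 35S::JMJ24 (exact permutation p = 0.1), and the mutant differed from 35S::JMJ24 by -0.83 (exact permutation p = 0.1). CYP71B30P lay within the bacterial controls on all 9 arrays. CYP71B5, directly beside CYP71B30P, differed from WT by 0.04 in the mutant (adjusted p = 0.892 by limma) and 0.10 in 35S::JMJ24 (adjusted p = 0.791).

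**Figure D4:**
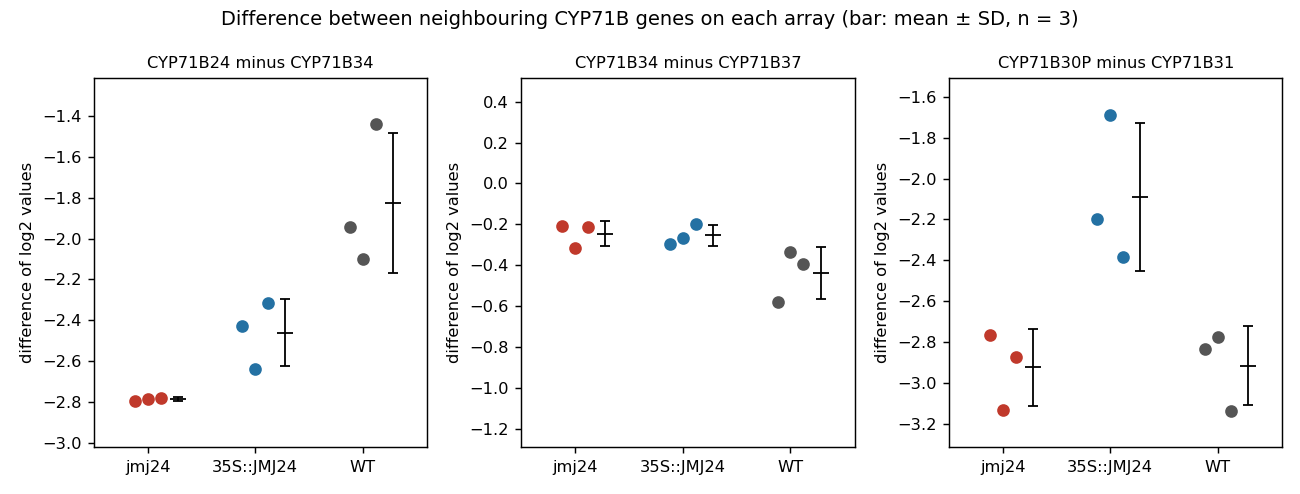
Difference between the log2 values of 2 neighbouring genes on each array (vertical axis, the same span in each panel), by genotype, with mean and SD of 3 arrays. CYP71B24 minus CYP71B34 averages -2.78 in jmj24 and -1.83 in WT, and CYP71B30P minus CYP71B31 averages -2.09 in 35S::JMJ24 and -2.91 in WT. CYP71B30P lay within the bacterial controls on every array, and CYP71B24 lay under the mark of background on the jmj24 arrays.

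Within 5 gene positions of the 7 genes, 19 of 54 other annotated genes were measured under a name. They include CYP71B5, CYP71B21, CYP71B22, CYP71B23, CYP71B25, CYP71B26, CYP71B35 and CYP71B36, already counted among the other CYP71B genes. In the mutant 1 of the 19 rose and 0 fell by limma against WT, with 2 at an unadjusted p under 0.05. Of all probe sets 0.308% rose, 0.831% fell and 11.7% had such an unadjusted p. In 35S::JMJ24 against WT 0 of the 19 passed by limma, with 1 at an unadjusted p under 0.05, against 0.0176% and 7.43% of all probe sets. The gene that rose was AT3G53310, beyond CYP71B32 from CYP71B31. It read 7.52, 7.32 and 7.72 on the jmj24 arrays, 6.67, 6.60 and 6.92 on the 35S::JMJ24 arrays, and 6.38, 6.41 and 6.45 on the WT arrays, without overlap. The rise was 1.103 against WT (SE 0.112, adjusted p = 0.00251) and 0.79 against 35S::JMJ24 (SE 0.112, adjusted p = 0.0283), both by limma. Against WT the call was kept whichever 1 array was left out (adjusted p of up to 0.0182) and was lost without the array numbered 1 in every genotype (adjusted p = 0.0807). Against 35S::JMJ24 it was lost without 7 of the 9 arrays, all but array 2 of jmj24 and array 3 of 35S::JMJ24, with an adjusted p between 0.0526 and 0.152. The median log2 change of the 19 was 0.009 in the mutant, against 0.006 for all probe sets.

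Of 249 other annotated genes caught by the P450 name rule, 17 P450 genes were measured under a name. They were the 12 CYP71B genes above and 5 from other families, so most of the P450 family is not covered. Over the whole array 13286 loci were named in this way. In the 3 comparisons 0 of the 17 passed by limma without the block, with 2, 1 and 0 at an unadjusted p under 0.05 for the mutant against WT, 35S::JMJ24 against WT and the mutant against 35S::JMJ24. Of all probe sets 1.14%, 0.0176% and 0.246% passed in these comparisons, and 11.7%, 7.43% and 6.33% had an unadjusted p under 0.05. Among the 17, CYP718 had the smallest p in both comparisons with WT, at 0.33 in the mutant (adjusted p = 0.332) and 0.29 in 35S::JMJ24 (adjusted p = 0.647). Of the indole pathway that holds CYP71B6, 1 of 33 listed genes was measured under a name. That gene, UGT74B1, encodes a glucosyltransferase of glucosinolate synthesis and differed from WT by -0.34 in the mutant (SE 0.085, adjusted p = 0.128) and -0.20 in 35S::JMJ24 (adjusted p = 0.661). The linalool list (6 genes) and the list of P450 reductases and cytochrome b5 proteins (7 genes) had 0 measured under a name.

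The loci most like CYP71B24 in their profile over the 9 arrays were AT5G44010, ARV2 (AT4G01510) and AGL42 (AT5G62165), a MADS-box gene. Their mean-centred log2 values differed from those of CYP71B24 by a root mean square of 0.202, 0.212 and 0.217, where CYP71B24 itself had an SD of 0.508 over the 9 arrays. In the mutant they differed from WT by -1.04, -0.81 and -0.89 and in 35S::JMJ24 by -0.48, -0.38 and -0.45, given without a test since they were picked for this profile. For CYP71B6 they were AT1G78060, AT1G54730 and AT5G09850, with root mean squares of 0.053, 0.054 and 0.055, where CYP71B6 had an SD of 0.147. In the mutant these differed from WT by -0.28, -0.34 and -0.40.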

How the data were processed

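Per the submitters' processing notes, the authors made the deposited values with the affy package; no source used here gives its version or its background correction, normalization and summary methods. One deposited value stands for each probe set on each array. No source names the scale, and the deposited values, between 2.63 and 14.7 with array medians from 7.83 to 7.87, were read as log2. Of 22810 probe sets, 64 controls were left out.

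Genes were named from the platform annotation through the RefSeq table of assembly TAIR10.1, used for names and gene order only; no build is named for the array, so no coordinates are given. All 9 arrays entered 1 limma 3.58.1 fit (R 4.3.3) with a mean for each genotype, 6 residual and 3.335 prior degrees of freedom and Benjamini-Hochberg adjustment. The fit was tested on simulated data in which arrays varied independently. That test therefore does not cover spread shared by arrays of the same replicate number. P-values measure the spread between these arrays, which may be technical. Exact permutation tests used scipy 1.17.1.

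The members and lists were chosen with earlier results of these data known. Named genes were the members, list genes past the threshold (otherwise the smallest p), and the 3 loci nearest each called member by root mean square difference over 9 arrays. The name rule for P450 genes also caught 2 cyclophilins (CYP59 and CYP71), which were left out. The 4 neighbour pairs with CYP71B genes outside the 7 were added after seeing the data. Alternatives were renewed quantile normalization, median centring, leaving out the dimmer 50%, the replicate number as fixed or random block, array weights, a trended robust prior, only the 2 genotypes compared, and arrays left out.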

Additional observations from a re-analysis of the deposited data

How the results depend on the processing

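The count of CYP71B genes past the threshold in the mutant against WT was 2 and moved to 1 after removal of the dimmer 50% by mean, which takes out CYP71B24 itself, to 1 with only the 2 genotypes compared, where CYP71B6 was lost (adjusted p = 0.0748), and to 0 without the array numbered 1 in every genotype. With 1 array left out in turn it lay between 1 and 2. It was 0 in both comparisons with 35S::JMJ24 under every alternative run. The labels do not say what a replicate number marks. Deviations of same-numbered arrays correlated positively in all 9 pairs, at 0.171 to 0.427 between the mutant and 35S::JMJ24, 0.058 to 0.438 between the mutant and WT and 0.014 to 0.418 between 35S::JMJ24 and WT, and 6 of 9 arrays correlated best with their own number. Every pair was over 0.1 for the mutant and 35S::JMJ24 alone, where the replicate block left 0 of the 7 genes called and 76 of all probe sets in place of 56. In the mutant against WT with the replicate block CYP71B37 also passed (-0.40, adjusted p = 0.0439), as did 1 other CYP71B gene, CYP71B26 (named after its values were seen), and 607 of all probe sets were called in place of 259. That count lay between 124 and 229 with 1 array left out, at 146 with only the 2 genotypes compared, at 641 with array weights and at 53 without the arrays numbered 1. Between the mutant and 35S::JMJ24 it was 56, lay between 14 and 44 with 1 array left out and between 2 and 78 under other alternatives. No log2 change of the 7 genes against WT turned in sign under these alternatives. Neighbour contrasts near 0 did: CYP71B34 minus CYP71B37 between the mutant and 35S::JMJ24 (0.006) lay between -0.015 and 0.041 with 1 array left out and at -0.033 without the arrays numbered 1, where CYP71B34 minus CYP71B35 in the mutant (-0.005) was 0.009. With 1 array left out, the mutant against WT gave -0.119 to 0.095 for CYP71B30P minus CYP71B31, -0.116 to 0.069 for CYP71B34 minus CYP71B35 and -0.051 to 0.129 for CYP71B30P minus CYP71B5. The cause was not tested. Signal over background limits CYP71B30P and CYP71B38, and CYP71B24 in the mutant.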
